A study of Homo sapiens with 10 samples.

Results

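Replication-dependent histone genes encode the proteins that package new DNA. The count table held 34 of them, among 55841 gene rows. They were taken as the protein-coding genes whose GENCODE 44 symbol is H1-1 to H1-6 or begins with H2AC, H2BC, H3C or H4C and a digit. The rule itself used no measured value, but this gene family was chosen with earlier results of these data known. GENCODE 44 lists 70 such genes, and the other 36 had no row under their GENCODE 44 identifier and were not analysed here. All 6 H1 genes had a row, as did 8 of 17 H2A genes, 11 of 19 H2B genes, 5 of 13 H3 genes and 4 of 15 H4 genes. In GENCODE 44 coordinates (GRCh38), 23 of the 34 lie on chromosome 6 between 25723397 and 27893106 and 9 on chromosome 1, while H4C16 lies at chr12:14767999-14771131 and H2BC12L at chr21:43565182-43565648.

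The libraries came from human embryonic stem cells, named HES9 in the labels and WA09 in the study's text, grown on matrigel in mTESR1 without feeder cells. The general population was all cells of the culture without sorting. The HHH population was sorted by flow cytometry for high GCTM-2, CD9 and EPCAM, surface antigens of pluripotent cells, which the study takes to be the fraction best at self-renewal. Only the HHH libraries went through the sort, so the sort itself and the population cannot be told apart. Batch 1 held 2 libraries of each population and batch 2 held 3 of each, all of a single line. The labels do not say whether replicates were separate cultures, so the p-values measure the spread between these libraries, which may be technical. The design text of the deposit mentions a protein kinase C inhibitor, which no library label carries. Markers of pluripotent cells were high in all libraries, with POU5F1 from 463 to 642 CPM (counts scaled to library size by TMM), and SOX17, GATA6, CDX2 and LUM, markers of other cell types, were close to 0. Other such markers differed between the populations. Over both batches, by edgeR, the neural genes LHX5 and SOX1 were lower in HHH by log2 differences of -5.57 and -1.38 (adjusted p = 1.26e-06 and 0.0438), the mesoderm gene TBXT by -1.74 (0.0019), KRT7 of the trophoblast list by -0.75 (0.0015) and COL1A1 of the stromal list by -0.93 (0.0031), while neither tested endoderm gene was called. These were 2 of 4 tested neural, 1 of 2 mesoderm, 1 of 1 trophoblast and 1 of 1 stromal genes. Other markers were higher in HHH without a call. Both tested endoderm genes had positive differences, 0.49 and 1.57 (adjusted p from 0.16 to 0.27). So did 1 of the neural genes (0.21) and 1 of the mesoderm genes (0.33). The summed level of the 5 neural genes was 9.05 to 10.5 CPM in general and 7.12 to 7.57 in HHH of batch 1, and 15.5 to 19.2 and 8.36 to 10.5 in batch 2. That of the 3 stromal genes was 19.8 to 21.4 CPM in general and 14.1 to 18.7 in HHH of batch 1, and 24.3 to 29.3 and 9.11 to 11.8 in batch 2. That of the 4 endoderm genes was 1.09 to 2.20 CPM in general and 2.13 to 3.53 in HHH of batch 1, and 0.349 to 0.525 and 0.638 to 0.859 in batch 2. Of 6 pluripotency genes, NANOG was higher in HHH by 0.44 (0.0056) and SOX2 was lower, with a log2 difference of -0.25 (0.0464), and the others were not called. The part of these differences in the histone values was not tested.

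Histones H2A, H2B, H3 and H4 form the core around which DNA is wound, and H1 binds where DNA enters and leaves it. Their replication-dependent genes are transcribed mainly in S phase, when the cell copies its DNA. Most of their mRNAs end not in a poly(A) tail but in a short stem-loop, which is bound by the protein SLBP and governs the processing, translation and decay of the message. Some of the genes also give polyadenylated transcripts. Because the message is tied to S phase, the question was whether the level of these genes differed between the self-renewing fraction and the whole culture.

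The stem-loop is the sequence that these genes share, and it is shown here because it sets their mRNAs apart from other messages. The GENCODE 44 transcripts of the 34 genes were searched after the stop codon for a fixed pattern. It was a stem of 6 bases opening with GG, a loop of 4, TTT and any base, and the exact reverse complement of the stem. The pattern was found in 32 of the genes, 22 to 57 bases past the stop codon (median 36). There were 4 forms, written as DNA with the loop in capitals.
20 genes of classes H1, H2A, H2B and H3: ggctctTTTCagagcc
H1-1, H1-6, H2AC21, H2BC4, H2BC5, H2BC11 and H2BC12: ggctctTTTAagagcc
All 4 H4 genes: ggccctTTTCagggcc
H2AC20: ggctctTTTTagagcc
The H4 genes had a stem of their own, shared by no gene of another class. The search allowed the loop to vary only at its last base. No match was found in the transcripts of H2AC11 and H2BC12L, which does not show that they lack a stem-loop of other letters.

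The genes are close relatives, and this bears on how well their counts can be told apart. Between H2B genes of equal coding length the median identity of the coding sequences was 90.7% over 28 pairs, and between H4 genes it was 81.3% over 6 pairs. H3C14 and H3C15 have the same coding sequence of 411 bases, H2BC12L differs little from H2BC12 (98.95% identity), and H3C13 is 97.1% identical to H3C14 and H3C15. The coding sequence of H4C11 is also that of H4C12, which had no row. How the authors counted fragments that match several genes is not given in the sources used here, so the counts of these genes are uncertain. H2AC21, H2BC4 and H2BC18 share 15.3%, 14.9% and 9.84% of their exonic bases with a gene on the other strand.

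Promoters of the genes also share letters. RefSeq promoter windows of 300 bases (GRCh38.p14) were at hand for 31 of the 34 genes. The octamer ATTTGCAT, on either strand, was in 13 of the 31 windows (41.9%), 6 of 8 for H2A, 6 of 10 for H2B and 0 of 9 for H1 and H4, against 1.80% of 27305 promoters of all genes. TATAAA was in 21 of 31, against 3264 of all 27305 promoters. CCAAT was in all windows of H1, H2A, H2B and H3 genes and in 0 of 3 H4 windows, against 35.7% of all promoters. The window listed for H3C4, chr6:26199244-26199543, is the same as that for H2AC7, so its octamer is counted for both. It does not reach H3C4 itself, at chr6:26196784-26197286. The windows of H2AC1 and H2BC1, H2AC6 and H2BC4, H2AC11 and H2BC11, and H2AC20 and H2BC21 overlap. Each of these pairs holds the same octamer, also counted for both genes, so the separate octamer sites are fewer than 13. Of the genes, 6 pairs of H2A and H2B start 215 to 248 bases apart on opposite strands, so that a single stretch holds both promoters. One such stretch, between H2BC21 and H2AC20, and the promoter of H4C16, which has neither octamer nor CCAAT, are shown with ATTTGCAT, TATAAA and CCAAT in capitals on either strand, where neighbouring matches run together.
H2BC21, chr1:149886633-149886932, minus strand: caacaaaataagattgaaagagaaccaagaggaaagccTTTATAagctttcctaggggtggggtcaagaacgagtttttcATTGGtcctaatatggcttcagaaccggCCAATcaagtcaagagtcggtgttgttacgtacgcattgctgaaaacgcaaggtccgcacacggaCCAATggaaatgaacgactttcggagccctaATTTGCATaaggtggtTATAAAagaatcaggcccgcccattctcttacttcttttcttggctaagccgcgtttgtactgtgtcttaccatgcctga
H4C16, chr12:14771082-14771381, minus strand: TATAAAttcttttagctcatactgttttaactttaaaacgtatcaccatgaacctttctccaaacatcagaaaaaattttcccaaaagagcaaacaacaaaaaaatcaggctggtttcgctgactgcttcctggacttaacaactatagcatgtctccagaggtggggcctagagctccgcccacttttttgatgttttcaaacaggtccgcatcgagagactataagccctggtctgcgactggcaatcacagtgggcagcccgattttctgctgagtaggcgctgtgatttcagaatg
In the H4C16 window the match to TATAAA is at the edge farthest from the start of the gene. A match describes the letters and does not show a bound factor.

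Together the genes took 0.407% to 0.696% of the counts of a library, and their levels spanned more than 3 orders of magnitude per length of gene model. The level per length was the CPM per kilobase of the gene-model length that the deposited log2 RPKM values imply. Of 25742 genes, 50.8% had an implied length within 1% of that in GENCODE 44. H1-5, a main somatic linker histone, stood highest, at 805 ± 297 CPM per kilobase in the general population and 784 ± 128 in HHH (SD, n = 5 each). H4C3 followed at 800 ± 386 and 785 ± 160, and H1-2, another somatic linker histone, at 650 ± 227 and 595 ± 89.4. These 3 levels overlap within their spread over libraries, so their order is not settled.

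Next in the order came H2AC7 at a mean of 521 CPM per kilobase over all libraries, H1-4 at 442, H3C12 at 406, H3C4 at 385 and H1-3 and H2BC5 both at 359. Neighbours in this stretch lie closer than their SD. Several genes with high counts stood lower per length, as their gene models are long. H2AC11, the H2A gene with the most counts, has an implied length of 2239 bases and a level of 97.1 CPM per kilobase, and H2BC18 has 2201 bases and 99.8. For a message that ends at the stem-loop, such a model is longer than the transcript, and the level per length is then too low.

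At the low end, H1-1 had a mean of 9.24, H2BC12L 8.98, H1-6 7.43, H3C15 2.71 and H3C14 2.24 CPM per kilobase. H1-6 and H2BC1 are known from testis, and H2BC1 had 0.444. H2AC1, the partner of H2BC1 on the opposite strand and likewise known from testis, had 32 counts over all libraries, 0 to 8 in each, and was the only gene too low to be tested. Libraries held 47242595 to 78503395 counts. A floor of 3 counts stood for 0.0459 to 0.0686 CPM, counting error only, and a level below it was not detectable at this depth.

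**Figure D1:**
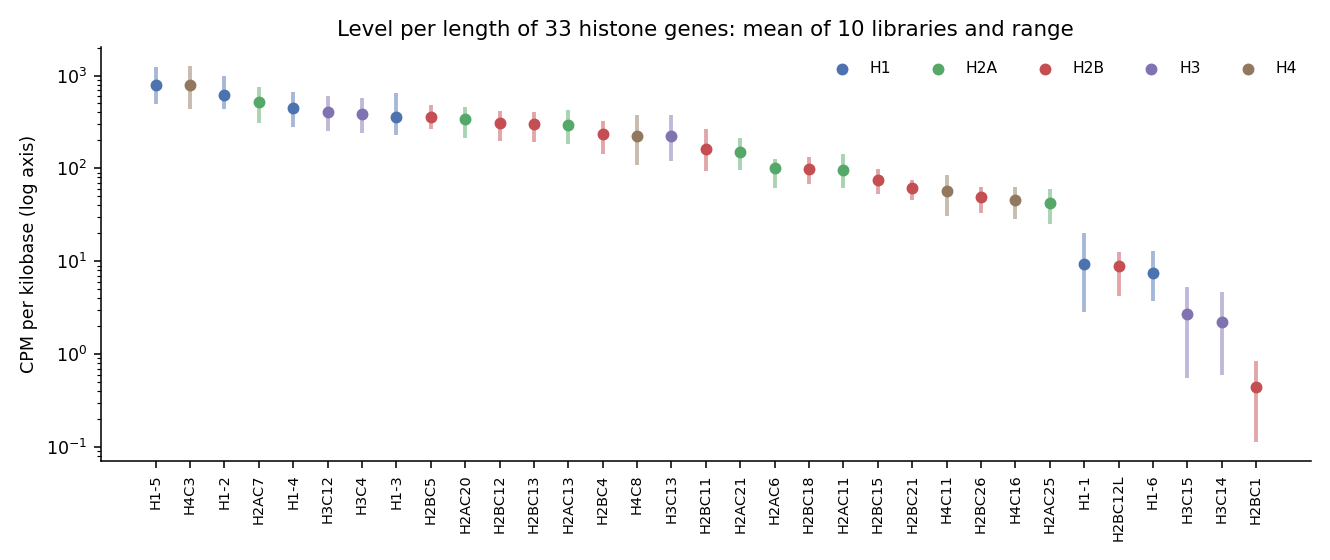
Level per length of the 33 tested histone genes (CPM per kilobase, log axis), as the mean of 10 libraries (point) with the lowest to highest library (line), coloured by class. H1-5 and H4C3 stand highest near 794 and 792, and H2BC1 lowest at 0.444.

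The main comparison set HHH against general within each batch. In batch 1 the summed level of the 34 genes was lower in HHH than in general, and in batch 2 its mean was higher in HHH with overlapping groups. In batch 1 the sum was 8363 and 6502 CPM in the general libraries (replicates 1 and 2) and 5428 and 5379 CPM in the HHH libraries (replicates 2 and 3), a ratio of means of 1.38 in favour of general. In batch 2 it was 3555, 6147 and 4040 CPM in general and 4556, 5772 and 6518 CPM in HHH (replicates 1 to 3), a ratio of 1.23 in favour of HHH. General replicate 2 of batch 2 stood above HHH replicates 1 and 2, and the other general libraries of that batch below all HHH libraries. In a bulk library, the share of cells in S phase and the histone mRNA per cell cannot be told apart. By EdU labelling of new DNA, the study reports very few HHH cells before S phase and most in S phase or later. The labels give no cell cycle phase for these libraries, and the part of the cell cycle in these sums was not tested.

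All 5 classes had these directions. For H1, the linker histones, the sum was 2739 and 1864 CPM in general and 1481 and 1597 in HHH of batch 1, a log2 ratio of -0.58, and in batch 2 it was 1106, 1951 and 1256 in general against 1404, 1799 and 2012 in HHH, a log2 ratio of 0.27. For H2A the log2 ratio of the class sums was -0.40 in batch 1 and 0.32 in batch 2, for H2B -0.42 and 0.26, and for H3 -0.44 and 0.28. For H4 it was -0.36 and 0.41, from 1106 and 979 CPM in general and 847 and 780 in HHH of batch 1, and 394, 621 and 388 in general and 535, 605 and 719 in HHH of batch 2. In batch 1 the groups did not overlap in any class, and in batch 2 they overlapped in each. No p is given for these sums, since the genes were chosen with results of these data known.

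A single library set much of the size of each ratio. Without general replicate 1 of batch 1, the highest library, the log2 ratio of the whole sum in batch 1 was -0.27, and without general replicate 2 of that batch it was -0.63. Without general replicate 2 of batch 2, the log2 ratio in batch 2 rose from 0.29 to 0.56, and without general replicate 1 of that batch it was 0.14. Its direction in each batch stayed the same whichever library was left out.

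**Figure D2:**
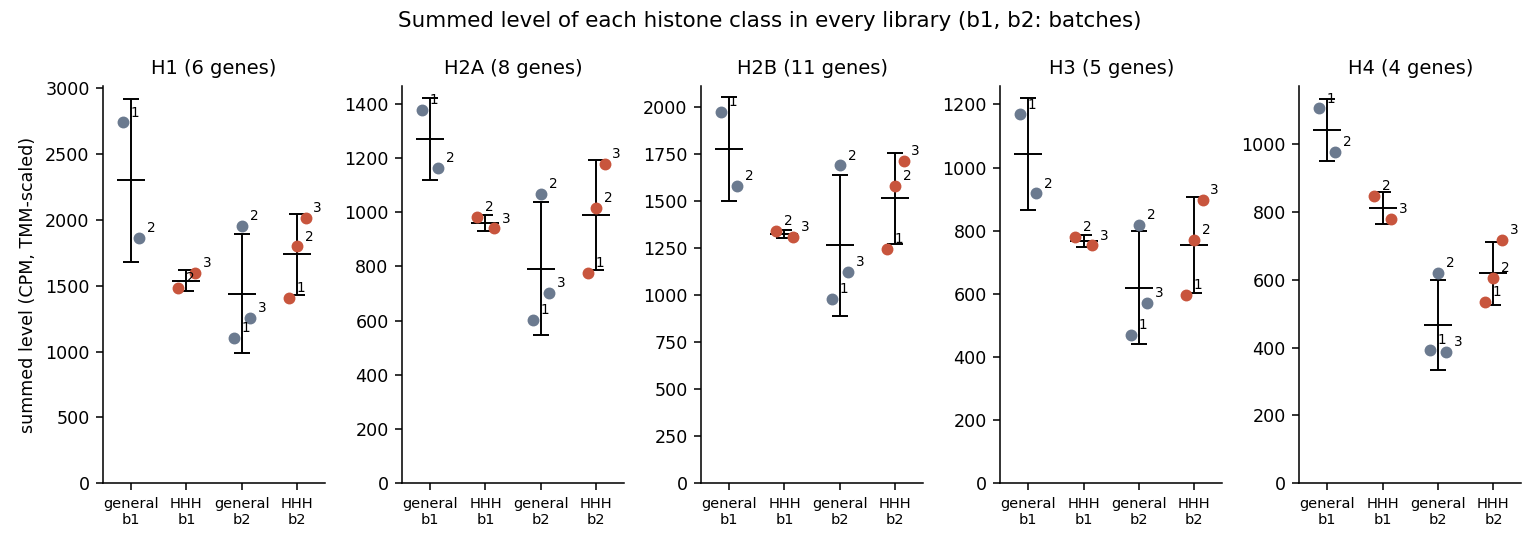
Summed level of each histone class (CPM, TMM-scaled) in every library, with general in grey and HHH in red, replicate numbers beside the points, and the mean ± SD in black. In batch 1 both HHH libraries lie below both general libraries in all classes. In batch 2 general replicate 2 lies among the HHH libraries.

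Gene by gene, no histone gene was called in either batch at a Benjamini-Hochberg adjusted p under 0.05 over all 25479 genes, by edgeR's quasi-likelihood test. In batch 1, where 2.04% of all tested genes were called, 29 of 33 histone genes had a negative log2 difference (HHH minus general) and 4 a positive one, with a median of -0.38 against 0.0085 for all genes. Of these, 12 had an unadjusted p under 0.05, and DESeq2 and limma with voom called 0. In batch 2, where 8.80% of all genes were called, 32 of 33 had a positive difference, with a median of 0.30 against 0.0050 for all genes, 5 had an unadjusted p under 0.05, DESeq2 called 1 (where it called 6.2% of all genes higher) and limma with voom 0. The lowest adjusted p in batch 2 was 0.058, for H4C11. Without general replicate 2 of batch 2, 16 of the 33 were called higher in HHH of batch 2, where 2.96% of all genes were called higher, so that the count rests on this library. Without general replicate 2 of batch 1, 1 gene was called lower in batch 1, as were 1.71% of all genes, and without HHH replicate 2 or 3 of batch 1, 1 gene was called higher in batch 2, as were 4.79% and 4.75% of all genes.

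The batches were also compared by genes whose libraries do not overlap. In batch 1 both HHH libraries lay below both general libraries for 26 of 33 genes, where this held for 20.8% of all genes tested. The reverse held for 0 of the 33, against 22.5% of all genes. In batch 2 all HHH libraries lay above all general libraries for 1 gene, H4C11, against 17.8% of all genes, and the reverse held for 0, against 17.2%.

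Over both batches together, where 5.44% of all genes were called, no histone gene was called, none had an unadjusted p under 0.05, and DESeq2 and limma with voom also called 0. The log2 differences ran from -0.21 to 0.50 with a median of 0.03, 21 positive and 12 negative. The difference between the batches was tested as the interaction of batch and population, which was called for 0.687% of all genes. It was positive for 32 of 33 histone genes, with a median of 0.69, and no gene was called by edgeR or limma with voom, though 22 had an unadjusted p under 0.05 and DESeq2 called 3 (where it called 1.37% of all genes in this direction). The lowest adjusted p was 0.080, for H4C11. Without general replicate 2 of batch 2 the interaction was called for 6 genes, all positive, where 0.0711% of all genes were called in that direction.

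**Figure D3:**
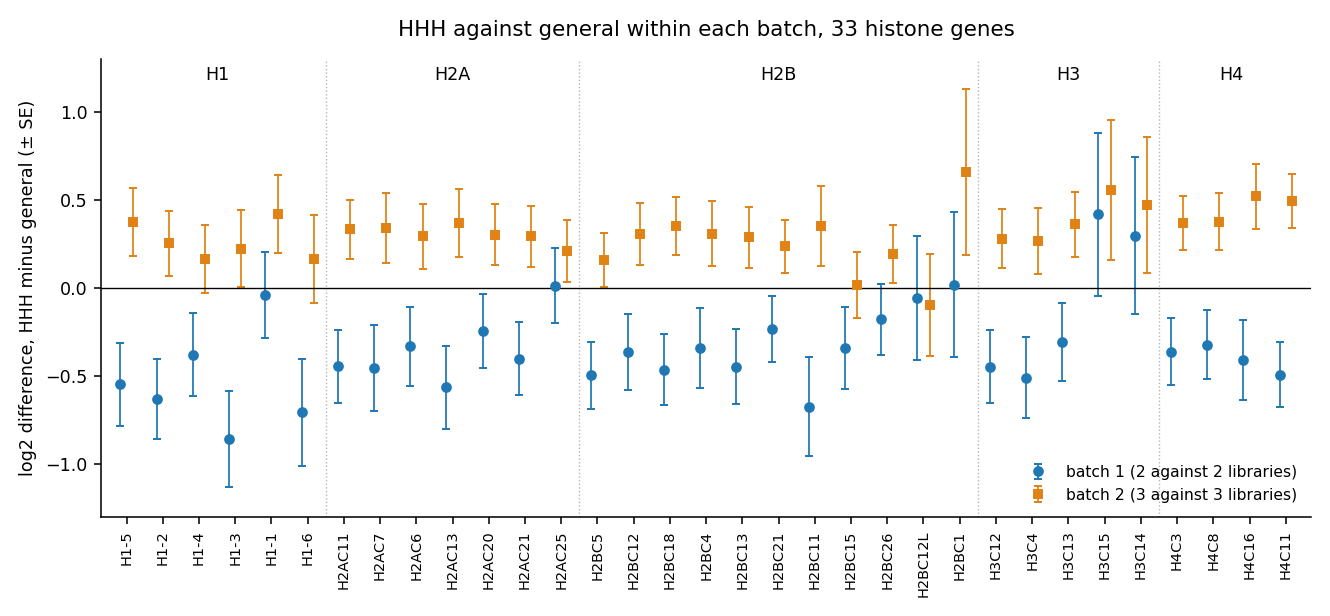
Log2 difference of HHH minus general (± SE, edgeR) for each of 33 histone genes, ordered by class and by total count, in batch 1 (blue circles) and batch 2 (orange squares). In batch 1, 29 genes lie below 0, and in batch 2, 32 lie above it.

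The linker histones had the most negative median of the classes in batch 1, -0.59 over the 6 genes. H1-5 (chr6:27866792-27867588) was at 978 and 685 CPM in general and 568 and 569 CPM in HHH of batch 1, and at 386, 684 and 445 in general and 519, 670 and 772 in HHH of batch 2. Its log2 difference was -0.55 ± 0.24 (SE, adjusted p = 0.26) in batch 1 and 0.37 ± 0.19 (adjusted p = 0.24) in batch 2. Both HHH libraries of batch 1 were below the general ones, and in batch 2 general replicate 2 exceeded the HHH libraries 1 and 2. H1-3 (chr6:26234212-26234987), a further somatic linker histone, was at 498 and 304 CPM in general and 190 and 252 in HHH of batch 1. Its difference there, -0.86 ± 0.27 (adjusted p = 0.12), was the most negative of all histone genes, and it was 0.22 ± 0.22 (adjusted p = 0.56) in batch 2. H1-3 is named here after its values were seen.

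H1-2 (chr6:26055740-26056470) was at 725 and 480 CPM in general and 370 and 408 in HHH of batch 1, and at 321, 525 and 327 in general and 391, 483 and 524 in HHH of batch 2. H1-4 (chr6:26156329-26157115) had 517 and 374 CPM against 331 and 354 in batch 1, and 217, 403 and 272 against 266, 354 and 378 in batch 2. Both are somatic linker histones, and for both the groups were apart in batch 1 and overlapped in batch 2. The difference of H1-4 in batch 2, 0.16 ± 0.19 (adjusted p = 0.63), was -0.023 without general replicate 1. H1-1, a linker histone of lower level, was at 11.8 and 13.7 CPM in general and 15.8 and 8.97 in HHH of batch 1, where the groups overlapped, and at 2.24 to 4.80 CPM in batch 2.

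Among H2A genes, H2AC11 (chr6:27133043-27133535) was at 323 and 264 CPM in general and 216 and 215 in HHH of batch 1, and at 137, 227 and 148 in general and 176, 215 and 253 in HHH of batch 2. H2AC7 (chr6:26198784-26199293) was at 295 and 237 CPM against 201 and 187 in batch 1, and at 120, 225 and 152 against 155, 219 and 256 in batch 2. H2AC6, which shares its promoter stretch with H2BC4, had 209 and 207 CPM against 162 and 168, and then 102, 188 and 124 against 130, 174 and 202. For all 3 the 6 libraries of batch 2 stood in the order of the summed level. Log2 differences over the 7 tested H2A genes ran from -0.57 to 0.01 in batch 1 and from 0.21 to 0.37 in batch 2.

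Among H2B genes, H2BC5 (chr6:26158122-26171349) was at 437 and 348 CPM in general and 272 and 284 in HHH of batch 1, and at 239, 386 and 262 in general and 288, 343 and 359 in HHH of batch 2. H2BC12 (chr6:27146361-27146855) was at 340 and 275 against 257 and 221 in batch 1, and at 162, 281 and 193 against 209, 274 and 302 in batch 2. For H2BC5 and H2BC12, general replicate 2 of batch 2 stood above at least 2 HHH libraries. H2BC18 had a log2 difference of -0.47 ± 0.20 (adjusted p = 0.26) in batch 1 and 0.35 ± 0.16 (adjusted p = 0.19) in batch 2. H2BC12L, the gene on chromosome 21, was the only one whose difference was negative in both batches, at -0.06 ± 0.35 and -0.10 ± 0.29, with 1.62 to 4.78 CPM in all libraries.

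Among H3 genes, H3C12 (chr6:27890315-27893106) was at 512 and 412 CPM in general and 345 and 333 in HHH of batch 1, and at 212, 357 and 250 in general and 272, 337 and 386 in HHH of batch 2. H3C4 (chr6:26196784-26197286) was at 491 and 382 against 303 and 309 in batch 1, and at 207, 373 and 258 against 259, 347 and 402 in batch 2. For both the libraries of batch 2 again stood in the order of the summed level. H3C13, on chromosome 1, had 154 and 114 against 115 and 102 in batch 1, where HHH replicate 2 lay within the range of the general libraries. H3C14 and H3C15, the pair with one coding sequence, stood at 0.999 to 7.83 and 0.930 to 8.80 CPM. Their differences in batch 1 were 0.30 ± 0.44 (adjusted p = 0.79) and 0.42 ± 0.46 (adjusted p = 0.70), positive where most other genes were negative.

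All 4 H4 genes had an unadjusted p under 0.05 in batch 2, as did 1 of 11 H2B genes, H2BC18, and 0 of the 6 H1, 7 H2A and 5 H3 genes. Whether the classes differ was not tested. H4C16 (chr12:14767999-14771131) was at 163 and 123 CPM in general and 113 and 102 in HHH of batch 1, and at 74.1, 127 and 75.6 in general and 106, 139 and 152 in HHH of batch 2. Its log2 difference in batch 2 was 0.52 ± 0.19 (adjusted p = 0.093), and only general replicate 2 reached into the HHH range. H4C3 (chr6:26103933-26104337) had 523 and 477 CPM against 410 and 368, and then 190, 289 and 181 against 253, 267 and 330, with a difference of 0.37 ± 0.15 (adjusted p = 0.15) in batch 2. H4C8 (chr6:26277609-26285638) had 388 and 351 against 301 and 290, and then 113, 187 and 121 against 154, 180 and 212. H4C11 (chr6:27824092-27824480), the gene with the lowest adjusted p, was at 32.0 and 27.7 against 22.4 and 20.1 in batch 1, and at 16.5, 18.8 and 11.4 against 20.8, 19.5 and 25.5 in batch 2. It is named after its values were seen. Its difference was -0.49 ± 0.18 (adjusted p = 0.19) in batch 1 and 0.49 ± 0.15 (adjusted p = 0.058) in batch 2. Over 22 alternative settings its adjusted p in batch 2 ran from 0.00026 to 0.25, below 0.05 in 9 of them.

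The genes moved together from library to library. General replicate 1 of batch 1 was the higher of its pair for 30 of 33 genes. Among the general libraries of batch 2, replicate 2 was highest for 31 genes and replicate 1 lowest for 30, and among the HHH libraries of that batch replicate 3 was highest for 30 and replicate 1 lowest for 32. After each library's value was set against the mean of its population and batch, the median Pearson r between genes was 0.91 over 528 pairs, with 10 libraries that all genes share. H3C12 followed the summed level most closely (r = 0.996), and H2BC12L (0.55), H3C14 (0.57), H4C11 (0.57) and H1-1 (0.59) least. These correlations are a description and share library and scaling. The summed level includes the gene itself, and in a group of 2 libraries the deviations mirror each other. The same r for genes at large is not given here.

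Within a population and batch, the spread of the histone genes was compared with that of tested genes at large. The limit was a mean of at least 10 CPM over all libraries, and the genes were not matched by level. In general of batch 2 the median SD of log2 CPM was 0.41 over the 27 histone genes past that limit, against 0.09 for all 10797 such genes. Of those genes, 98.9% had an SD smaller than the histone median. It was 0.28 in HHH of batch 2 (97.1% of genes smaller), 0.22 in general of batch 1 (87.1%) and 0.07 in HHH of batch 1 (36.8%), the last with 2 libraries close to each other. In 3 of the 4 groups, then, the median SD of the histone genes exceeded the SD of most genes past the limit. In HHH of batch 1 it was smaller than that of most. The differences between populations are read against the spread of each group.

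**Figure D4:**
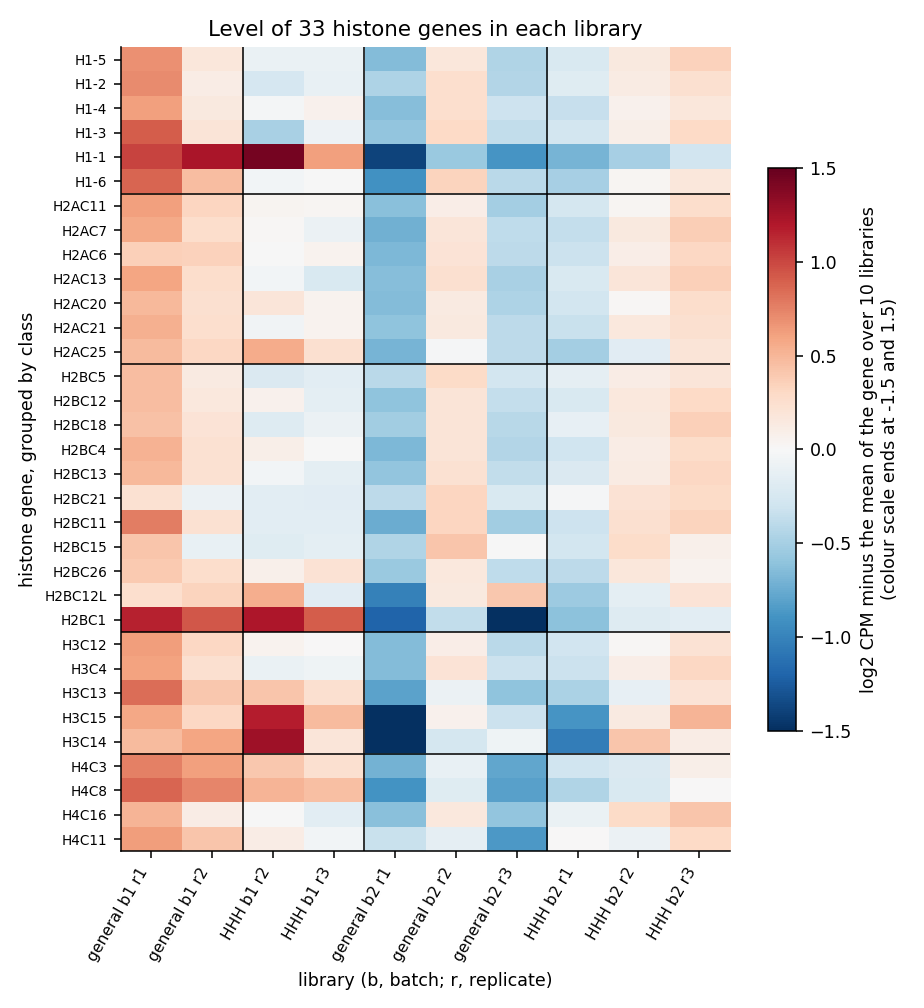
Level of 33 histone genes (rows, by class) in the 10 libraries (columns), as log2 CPM minus the mean of the gene over the libraries, in red where higher and blue where lower. General replicate 1 of batch 1 is high and general replicate 1 of batch 2 low for most genes, and H1-1, H2BC1, H3C13, H4C3 and H4C8 are higher in batch 1.

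Batch 2 against batch 1 gave calls where the populations did not. Of the 33 genes, 10 (30.3%) were called lower in batch 2 and 0 higher, where 46% of all genes were called, 23.3% lower. With libraries left out in turn, 7 to 14 were called lower. The 7 came without general replicate 1 of batch 1, where 20.9% of all genes were called lower. The 14 came without HHH replicate 3 of batch 2, where 23.1% were. Whether histone genes are called lower more often than genes at large is thus not settled. H4C8 fell by 1.06 on the log2 scale (SE 0.16, adjusted p = 8.6e-05), H4C3 by 0.83 (SE 0.15, adjusted p = 0.00057) and H1-1 by 1.80 (SE 0.17, adjusted p = 2.1e-06). The others were H2BC1, H3C13, H3C14, H3C15, H2AC25, H2BC26 and H4C11. H4C16 was not called, with -0.18 ± 0.19 (adjusted p = 0.46). H4 genes made up 13.2% to 15.6% of the histone counts in batch 1 and 9.61% to 11.7% in batch 2, and H2B genes 23.6% to 24.7% and 26.3% to 27.8%, so that the ranges of the batches were apart.

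This batch result depended on scaling. With library size only, 5 histone genes were called lower, against 7.17% of all genes, and 2 higher, against 48.6% of all genes. The 34 genes took on average 0.555% of the counts in batch 1 and 0.556% in batch 2. H4C8, H4C3 and H1-1 were called lower under both scalings. Small nuclear and nucleolar RNAs, which like most histone mRNAs lack a poly(A) tail, took 2.71% to 4.97% of the counts in batch 1 and 0.418% to 0.727% in batch 2, and the small nucleolar RNA SNORD3A fell by 2.74 on the log2 scale. Identifiers without a match took 16.3% to 20.3% and 7.44% to 10.6%. The labels name a TruSeq RNA library from total RNA and do not state a selection for poly(A) tails. The part of these features in the histone result was not tested.

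Few of the genes that transcribe and process histone mRNA were called. Of 29 such genes, all tested, 0 were called over both batches, against 5.44% of all genes, with 5 at an unadjusted p under 0.05. Within batch 2, 1 was called (3.45% of them, against 8.80% of all genes). It was CTIF, a translation factor of these mRNAs, lower in HHH of batch 2 by 0.42 ± 0.12 (adjusted p = 0.043). SLBP, which binds the stem-loop, was at 35.1 and 42.0 CPM in general and 39.5 and 37.6 in HHH of batch 1, and at 36.6, 31.1 and 39.0 in general and 33.8, 35.0 and 48.7 in HHH of batch 2. NPAT, which activates histone gene transcription, had a log2 difference of -0.09 ± 0.10 in batch 1 (adjusted p = 0.70) and -0.05 ± 0.08 in batch 2 (adjusted p = 0.77), at 46.0 to 53.9 CPM in general. SLBP and NPAT are named for their role. The levels of SLBP overlapped between populations, and general replicate 2 of batch 2, high for histones, had the lowest SLBP of its group.

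S phase genes, which enter here because histone mRNA is tied to S phase, had no call among 22 in either batch or over both. Of all genes, 2.04% were called in batch 1, 8.80% in batch 2 and 5.44% over both. Of the S phase genes, 4 had an unadjusted p under 0.05 in batch 1, 3 in batch 2 and 1 over both. Their median log2 difference was -0.12 in batch 1 and 0.06 in batch 2, against -0.38 and 0.30 for the histone genes. The summed S phase level was 3677 and 3901 CPM in general and 3638 and 3458 in HHH of batch 1, and 3141, 3269 and 3122 in general and 3361, 3178 and 3435 in HHH of batch 2. In batch 2 general replicate 2 was again the highest of its group, by much less than for histones. Other libraries stood in a different order. General replicate 1 of batch 1, the higher of its pair for histones, was the lower for S phase genes. HHH replicate 2 of batch 2 was the lowest of its group for S phase genes but not for histones.

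Many histone variants are also made outside S phase, and most of their genes lie outside the replication-dependent clusters. Of 12, 2 were called higher in HHH over both batches, 16.7% against the 5.44% of all genes called. MACROH2A1, a large H2A variant, was at 120 and 147 CPM in general and 168 and 168 in HHH of batch 1, and at 97.3, 92.9 and 97.2 in general and 142, 134 and 150 in HHH of batch 2, a log2 difference of 0.47 ± 0.08 (adjusted p = 0.0022). H2AJ, an H2A variant, rose by 0.37 ± 0.08 (adjusted p = 0.0098), with 21.5 and 22.7 CPM against 27.0 and 25.5, and 15.5, 14.6 and 13.6 against 18.8, 19.3 and 21.3. In both batches and for both genes, all HHH libraries lay above all general ones. Within batch 2, CENPA, the H3 variant of centromeres, H2AZ1 and H3-3A were called higher as well, at 0.47, 0.43 and 0.32 (adjusted p = 0.0278, 0.0386 and 0.0498), and within batch 1 H2AX at 0.55 (adjusted p = 0.0325). In all, 5 of the 12 were called in batch 2 (41.7%, against 8.80% of all genes) and 1 in batch 1 (8.33%, against 2.04%). Whether the variants differ from the replication-dependent genes was not tested.

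Among 24 chaperones and deposition factors, 1 was called over both batches, a share of 4.17% against 5.44% of all genes. HJURP, which deposits CENPA at centromeres, was at 48.7 and 46.9 CPM in general and 59.1 and 61.0 in HHH of batch 1, and at 57.8, 55.9 and 58.5 in general and 74.4, 78.5 and 78.8 in HHH of batch 2. Its log2 difference was 0.39 ± 0.06 (adjusted p = 0.0015), and the groups did not overlap in either batch. In batch 2 ASF1A, a chaperone of H3 and H4, was called as well, at 0.45 ± 0.11 (adjusted p = 0.0275). That made 2 of 24 called in batch 2 (8.33%), near the 8.80% of all genes.

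**Figure D5:**
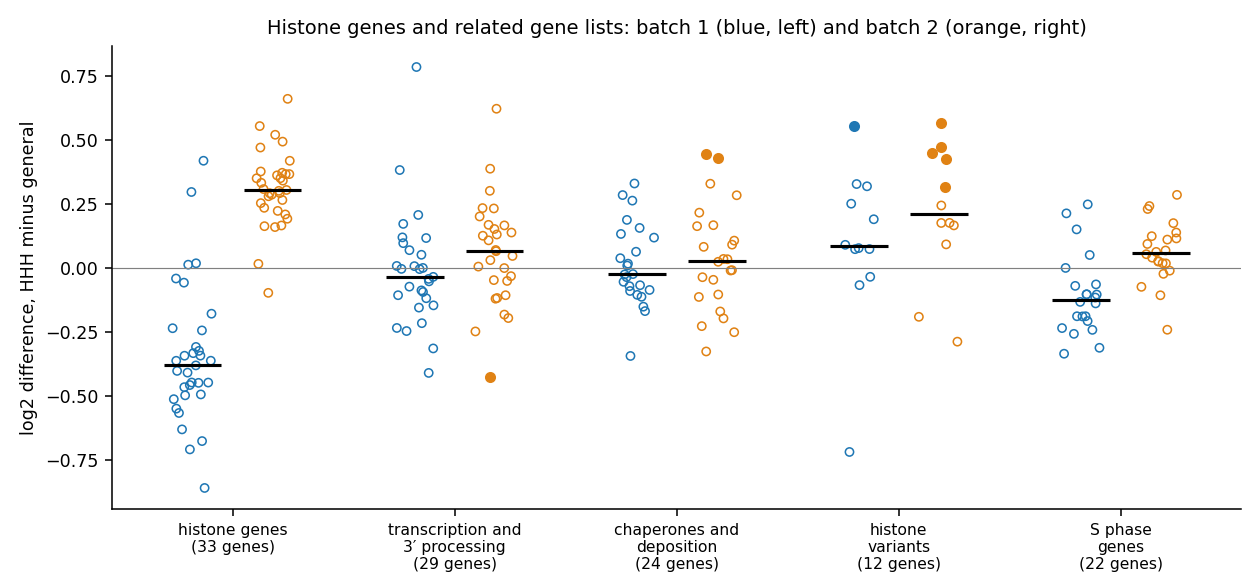
Log2 difference of HHH minus general for the histone genes and 4 related lists, in batch 1 (blue, left) and batch 2 (orange, right), with genes called at an adjusted p under 0.05 filled and the median as a black line. The histone genes have medians of -0.38 and 0.30, and the other lists stay nearer to 0.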

How the data were processed

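RNA was sequenced in 10 libraries (5 general, 5 HHH) and grouped by the population and batch in their titles. The authors deposited whole fragment counts per Ensembl gene without normalization. They also deposited a log2 table, a score scaled by TMM and converted to RPKM by its name, which was used for gene-model lengths and as an alternative. The submitters' processing notes name GRCh37, CASAVA 1.8.2, R 3.2.2 and limma 3.26.9, while the aligner and the counting tool are not given in the sources used here. Identifiers were matched to GENCODE 44, and 88.5% of them matched. Counting by strand is not stated either.

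Genes with enough counts by edgeR's filterByExpr (4 groups, minimum count 10) were tested, 25479 in all, with 33 of the 34 histone genes among them. Counts were scaled by TMM and compared by the two-sided quasi-likelihood test of edgeR 4.0.16 in R 4.3.3. Within-batch differences and the interaction came from a model with 4 groups, which shares the spread of all libraries, and the comparison over both batches from an additive model of batch and population. P-values were adjusted by Benjamini-Hochberg over all tested genes, with 0.05 as the limit for a call. The common biological coefficient of variation was 0.115. Libraries of a group differed by more than counting noise (chi-square 5.77 to 48.7 times its degrees of freedom), so none was taken as a repeat.

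The histone genes and the lists were chosen with earlier results of these data known. Named genes were those called, the 3 of each class with the most counts, those with identical coding sequence, and from the other lists those called over both batches or in the interaction. Genes outside this rule are marked or belong to small counts given in full. Stem-loops were searched in GENCODE 44 transcripts and motifs in RefSeq promoter windows (GRCh38.p14). The fit was tested on simulated data. Alternatives were other scalings, filters, DESeq2 1.42.0, limma 3.58.1 (with voom, or fitted to the deposited log2 table), a replicate block, removal of a GC trend and each library left out.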

Additional observations from a re-analysis of the deposited data

Results flagged for a closer look

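H2BC12L, the H2B gene on chromosome 21, was at 1.62 CPM in general replicate 1 of batch 2, far below the other general libraries, which had 3.62 to 4.33 CPM. Its gap to the nearest of the others was 0.739 of the range of the 5 libraries, above Dixon's critical value of 0.71. Of 58 groups of 5 libraries examined this was the only one past that value, where chance alone would pass about 1 in 20 groups. The same library was the lowest of its group for 30 of the 33 histone genes.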

How the results depend on the processing

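Over 2 populations and 10 libraries, the count of histone genes called moved with several settings, and the cause was not tested for any of them. Without a filter on low counts, 16 genes were called lower in batch 1 (1.62% of all genes were called in that direction), 19 higher in batch 2 (4.16%), 24 positive in the interaction (1.22%) and 1 higher over both batches (2.4%). With the replicate block, 5 were called higher in batch 2 (6.4% of all genes) and 2 over both batches (2.41%), where 33 of 33 differences were positive with a median of 0.20, against 21 of 33 and 0.03 without the block. With the block and the GC trend removed, 15 (6.41%) and 2 (3.86%) were called. In batch 1 replicate 2 is the only number found in both populations. General replicate 1 and HHH replicate 3 of that batch therefore carry no weight in the differences of the block fits. Removal of the GC trend alone, DESeq2, and leaving out small RNAs and mitochondrially encoded genes each gave 1 call higher in batch 2 (2.49%, 6.2% and 4.57% of all genes), and DESeq2 gave 3 in the interaction (1.37%). For batch 2 against batch 1, library size only gave 2 calls higher (48.6% of all genes) and 5 lower (7.17%). With libraries left out in turn, calls ran from 0 to 1 (lower, batch 1), 0 to 16 (higher, batch 2) and 0 to 6 (interaction, positive). For batch 2 against batch 1 they ran from 7 to 14 (lower). The log2 ratio of the summed level in batch 1 ran from -0.63 to -0.27 over the 34 histone genes, from -0.83 to -0.28 for H1, -0.52 to -0.27 for H2A, -0.57 to -0.25 for H2B, -0.61 to -0.26 for H3 and -0.44 to -0.27 for H4. In batch 2 it ran from 0.14 to 0.56 over the 34, from 0.12 to 0.56 for H1, 0.16 to 0.60 for H2A, 0.11 to 0.53 for H2B, 0.12 to 0.53 for H3 and 0.28 to 0.66 for H4. Among the genes chosen for naming, those that changed sign within a batch were H1-4 in batch 2 (-0.023 to 0.44 over libraries left out), H3C14 in batch 1 (-0.35 to 0.73) and H3C13 in batch 1 (0.0075 with the replicate block). Over all 33, signs also moved: 4 were negative in batch 2 without general replicate 1 of that batch, against 1 with all libraries, and 7 were positive in batch 1 with the replicate block, against 4. MACROH2A1, H2AJ and HJURP were called over both batches in 22, 21 and 22 of 24 alternatives.

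Whether replicate numbers pair the libraries was checked by the correlation of their deviations from the group means. Over all genes it was 0.096 in batch 1 and 0.22, 0.12 and 0.10 in batch 2. Not every pair passed 0.1, so the numbers were treated as shared names only. Over the histone genes alone the same pairs had 0.71 in batch 1 and 0.89, 0.29 and 0.52 in batch 2. In batch 2 each library correlated best with its own number over all genes, a hint from the data and not from the design. Over the histone genes, general replicate 2 correlated more with HHH replicate 3 (0.42), and general replicate 3 more with HHH replicate 2 (0.58).

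Depth limits the values of H2AC1, with 32 counts over all libraries, and of H2BC1, with 107.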
